A study of Mus musculus with 34 samples.

Results

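The transcription factor Nrf2, encoded by Nfe2l2, and 9 genes of antioxidant defence (Hmox1, Nqo1, Gclc, Gclm, Txnrd1, Srxn1, Sod1, Sod2 and Cat) were followed in the cortex of mice carrying the R6/2 transgene, a knock-out allele of Hdac4, both, or neither. They were chosen by name, and every probe set that the array's annotation gives to one of these symbols alone was used, which gave 26 of 45037 probe sets and 10 of 18193 genes. R6/2 mice express the N-terminal exon 1 fragment of mutant HTT and model Huntington's disease, and HDAC4 is a class IIa histone deacetylase. Cortex was taken at 15 weeks of age from Dble::R6/2 mice (9 animals with the transgene and 1 Hdac4 knock-out allele), R6/2 mice (9 with the transgene, hemizygous, and normal Hdac4), Hdac4HET mice (8 with 1 knock-out allele and no transgene) and WT mice (8 animals). All were males and females on a CBA x C57Bl/6 background, none had been treated, and the knock-out allele was first made in another strain, of whose DNA a stretch around Hdac4 stays in its carriers. Each mouse gave 1 Affymetrix expression array of total RNA. Values below are deposited log2 levels per probe set, a change is a difference of mean log2 levels, and a change was called at a Benjamini-Hochberg adjusted p of 0.05 or less from limma's moderated test over all 45037 probe sets. Levels are not compared between probe sets, and those whose names end in _x_at hold probes that can also bind other transcripts.

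In unstressed cells Keap1 holds Nrf2 in the cytoplasm and hands it to a ubiquitin ligase. Oxidants and electrophiles modify Keap1, and Nrf2 then enters the nucleus and pairs there with a small Maf protein. The pair binds antioxidant response elements near genes of glutathione synthesis, thioredoxin recycling, quinone reduction and haem breakdown. Superoxide dismutases and catalase act on superoxide and hydrogen peroxide directly. In the brain much of the Nrf2 response and of glutathione synthesis is known from astrocytes, which supply neurons with glutathione precursors, and oxidative damage is a described feature of Huntington's disease.

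Promoter sequence was set beside the genes because most of them are known as shared targets of Nrf2. RefSeq promoter windows of build GRCm38.p6, from 250 bases before to 50 bases after a transcription start, were found for 8 of the 10 genes, and 5 genes held the core of the antioxidant response element, TGACNNNGC on either strand, where N is any base. Over all 32851 windows 12.4% held it, as did 14% of genes. The 4 stretches below lie upstream of the start, are written on the strand of the gene from 5′ to 3′, and carry the matched core in capitals.
Nfe2l2, chr2:75704850-75704913, minus strand: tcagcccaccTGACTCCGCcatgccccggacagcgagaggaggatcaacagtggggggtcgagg
Gclm, chr3:122245378-122245476, plus strand: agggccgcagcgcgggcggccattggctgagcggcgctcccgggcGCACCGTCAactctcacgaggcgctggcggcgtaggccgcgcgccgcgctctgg
Txnrd1, chr10:82859069-82859167, plus strand: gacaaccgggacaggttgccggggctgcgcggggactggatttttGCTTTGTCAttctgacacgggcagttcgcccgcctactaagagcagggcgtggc
Sod1, chr16:90220661-90220759, plus strand: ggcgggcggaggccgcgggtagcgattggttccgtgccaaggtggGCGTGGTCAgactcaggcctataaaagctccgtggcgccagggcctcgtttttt

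Counted from the transcription start, the core began at position -240 in Nfe2l2, -134 in Gclm, -92 in 1 of the 3 windows of Txnrd1 and -56 in Sod1. In the stretches of Gclm, Txnrd1 and Sod1 it stands in reverse orientation. In Srxn1 it lay at position 29, after the start. The windows of Nqo1, Sod2 and Cat held no match, and sequence outside the windows was not searched. For Hmox1 and Gclc no window was used. A match is a string of letters in the window and was not measured as a bound site.

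The median level of an array ranged between 5.44 and 5.52, while arrays of 1 genotype correlated at 0.973 or above. Hdac4, the targeted gene, averaged 7.58 in Dble::R6/2 against 7.91 in R6/2, and 7.58 in Hdac4HET against 8.06 in WT, on its brightest probe set, a difference that was called in Hdac4HET (adjusted p = 0.0036) and not in Dble::R6/2 (0.691), where another Hdac4 probe set was called (-0.61, adjusted p = 0.00033). Xist went against the labelled sex in 15 of 34 arrays, and it was high in 3 of 9 Dble::R6/2, 4 of 9 R6/2, 2 of 8 Hdac4HET and 5 of 8 WT arrays. Of 4 arrays high in the pituitary transcript Prl, 1 was Hdac4HET (replicate 1) and 3 were WT (replicates 2, 6 and 7). Of 5 pituitary markers 3 were called lower and 0 higher in R6/2 than in WT (median change -1.61). None was called in Dble::R6/2 against Hdac4HET (median -0.49) or in Hdac4HET against WT (median -1.12). R6/2 replicate 2 carried epidermal transcripts, with a mean of 6.73 over 8 epidermal markers, against at most 5.20 in the other R6/2 mice. Of these 8 markers 1 was called higher in R6/2 than in WT (median change 0.36). In Dble::R6/2 against Hdac4HET 3 were called higher (median 0.14), and 0 were lower in either comparison. Of 2 red blood cell markers 1 was lower in each of these comparisons (medians -0.25 and -0.55). All 8 neuronal markers were lower in R6/2 than in WT and in Dble::R6/2 than in Hdac4HET, and the mean of the 8 lay between 11.3 and 11.6 in Dble::R6/2, 11.2 and 11.6 in R6/2, 11.7 and 12.0 in Hdac4HET and 11.8 and 12.0 in WT. Of 10 astrocyte markers 6 were lower and 1 higher in R6/2 than in WT, and 6 were lower in Dble::R6/2 than in Hdac4HET. Of 9 microglial markers 6 and 8 were lower in these comparisons, and of 9 oligodendrocyte markers 5 and 4, while of 11 endothelial and mural markers 2 were higher and 0 lower in R6/2 and 1 was higher and 2 lower in Dble::R6/2. Of all genes 20.2% were called higher and 11.8% lower in R6/2 against WT, and 18.3% and 11.7% in Dble::R6/2 against Hdac4HET. The endothelial and mural counts are near these shares, as is the 1 epidermal marker higher in R6/2. Of 6 choroid plexus markers 3 were higher and 0 lower in R6/2 than in WT (median change 0.31) and 0 were called in Dble::R6/2 against Hdac4HET (median 0.56), and their mean reached 7.70 in Dble::R6/2 replicate 8, against at most 6.33 in R6/2, 5.91 in Hdac4HET and 5.70 in WT. In bulk RNA, fewer cells of a type and less RNA per cell cannot be told apart, and the part of cell makeup in the results below was not tested.

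With the R6/2 transgene, the quinone reductase Nqo1 and, on its brightest probe set, the cytosolic dismutase Sod1 were higher in every carrier than in every mouse without it. On both Hdac4 backgrounds Txnrd1 was higher on average by its brightest probe set, and Gclc by its second (1455959_s_at). The brightest Srxn1 probe set was also called higher on both, near the threshold. In R6/2 against WT that Srxn1 call held under 7 of 11 alternative settings. Catalase was lower on both of its probe sets in Dble::R6/2 against Hdac4HET and on 1 of them in R6/2 against WT. Nqo1 was 1.61-fold higher in R6/2 than in WT and 1.55-fold higher in Dble::R6/2 than in Hdac4HET. Nfe2l2 itself and Hmox1 did not pass the test in either comparison. In R6/2 against WT, 8 of the 26 probe sets were called higher and 1 lower, where 14.9% of all probe sets were called higher and 12% lower. In Dble::R6/2 against Hdac4HET, 9 were called higher and 2 lower, where 13.2% of all were called higher and 9.98% lower. The median change over the 26 was 0.097 in R6/2 against WT, beside 0.010 over all probe sets, and 0.10 in Dble::R6/2 against Hdac4HET, beside 0.0050. The comparisons share no array. Groups that did not overlap were seen in 5 probe sets for R6/2 against WT, where 4.19% of all probe sets were higher without overlap, and in 3 for Dble::R6/2 against Hdac4HET, where the share was 3.04%. By the brightest probe set of each gene, 4 of 10 genes were called higher and 0 lower in R6/2 against WT, where 20.2% of 18193 genes were called higher and 11.8% lower. In Dble::R6/2 against Hdac4HET 5 were called higher and 1 lower, where 18.3% of genes were called higher and 11.7% lower.

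**Figure D1:**
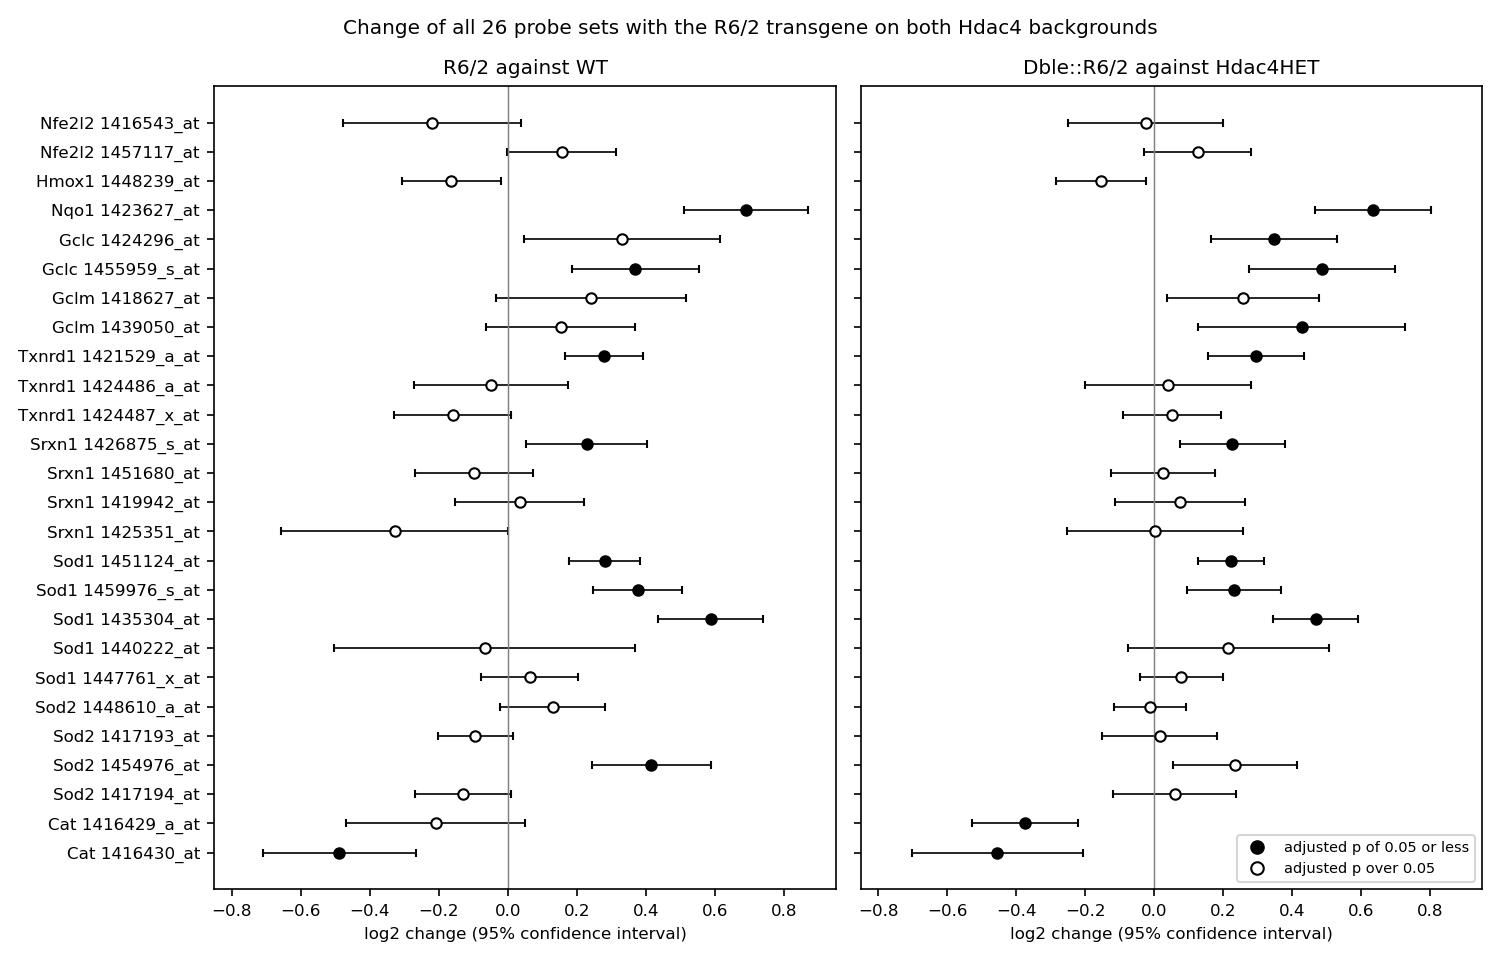
Log2 change (x axis) with its 95% confidence interval for each of the 26 probe sets, Dble::R6/2 against Hdac4HET in the right panel and R6/2 against WT in the left, with filled circles at an adjusted p of 0.05 or less. Nqo1 has the largest change of the 26 in both panels (0.63 and 0.69), and only Cat has called falls.

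Nfe2l2 has a well-measured probe set (1416543_at) and a dim one (1457117_at). On the first, the lowest, median and highest levels were 6.64, 7.17 and 7.41 in Dble::R6/2 and 6.74, 7.15 and 7.37 in Hdac4HET. They were 6.75, 7.22 and 7.60 in R6/2 and 7.04, 7.55 and 7.83 in WT. The ranges overlapped in both comparisons, and WT had the highest median of the 4 genotypes. Nfe2l2 changed by -0.024 ± 0.11 (SE) in Dble::R6/2 against Hdac4HET (adjusted p = 0.916) and by -0.22 ± 0.12 in R6/2 against WT (adjusted p = 0.216), with a 95% interval of -0.48 to 0.04 for the last. The dim probe set averaged 3.42, 3.36, 3.29 and 3.20 in Dble::R6/2, R6/2, Hdac4HET and WT and was not called in either comparison (adjusted p = 0.271 and 0.145).

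Nqo1 reduces quinones and is a widely used read-out of Nrf2 activity. Its single probe set (1423627_at) had lowest, median and highest levels of 5.58, 5.92 and 6.09 in Dble::R6/2 and 4.91, 5.29 and 5.44 in Hdac4HET. In R6/2 they were 5.70, 5.89 and 6.30, and in WT 5.09, 5.21 and 5.57. Every transgenic mouse stood above every mouse of the genotype it was compared with. The rise was 0.63 ± 0.080 in Dble::R6/2 against Hdac4HET (adjusted p = 8.44e-06) and 0.69 ± 0.086 in R6/2 against WT (adjusted p = 8.63e-06), and it was called under all 10 and all 11 alternative settings. The setting with brighter probe sets only kept it narrowly, at a mean of 5.61 (percentile 51.5 of all probe sets) that includes the transgenic mice. Its means in Hdac4HET and WT, 5.27 and 5.26, lay below the lowest array median of 5.44.

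Hmox1, the inducible haem oxygenase, was measured by 1 dim probe set (1448239_at). Lowest, median and highest levels were 4.36, 4.58 and 4.69 in Dble::R6/2 and 4.54, 4.71 and 4.85 in Hdac4HET. In R6/2 they were 4.48, 4.65 and 4.71, and in WT 4.53, 4.71 and 5.10. The groups overlapped, with 3 Dble::R6/2 mice below all Hdac4HET mice and 2 R6/2 mice below all WT mice. The change was -0.15 ± 0.063 in Dble::R6/2 against Hdac4HET and -0.16 ± 0.069 in R6/2 against WT, with an adjusted p of 0.0875 in each. With labelled sex as a covariate Hmox1 was called lower in Dble::R6/2 than in Hdac4HET (-0.18, adjusted p = 0.0138). This was the only call of Hmox1 there under 9 alternative settings, and with Xist-read sex it was not called. Xist went against the labelled sex in 4 of 9 Dble::R6/2 and 5 of 8 Hdac4HET arrays.

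**Figure D2:**
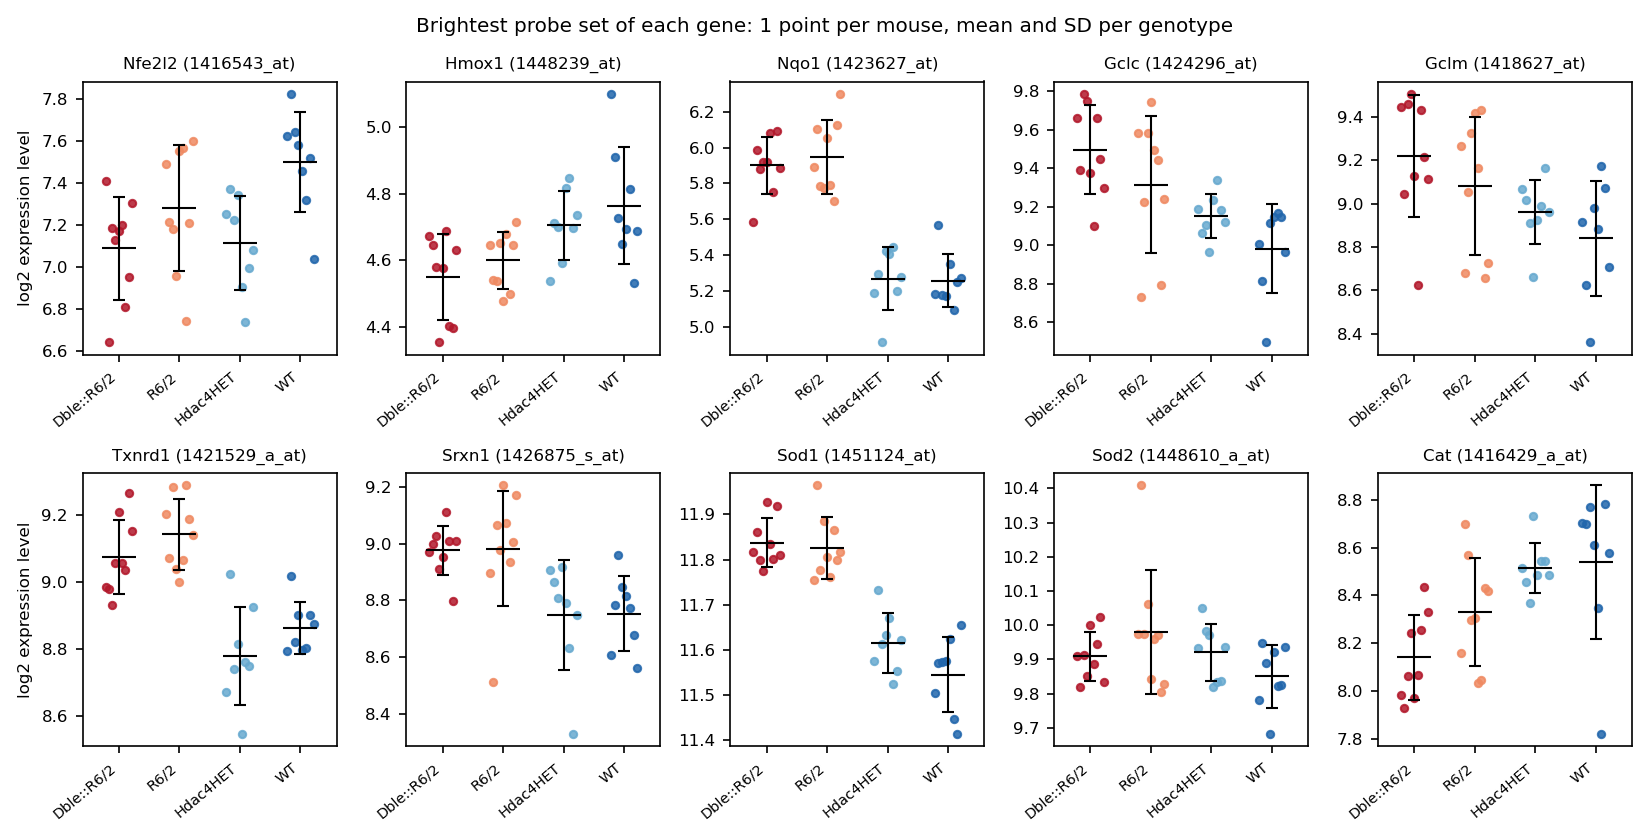
Log2 level (y axis, own scale in each panel) of the brightest probe set of each of the 10 genes, 1 point per mouse, with the mean and SD of Dble::R6/2 and R6/2 (9 mice each) and of Hdac4HET and WT (8 mice each). Nqo1 and Sod1 separate both transgenic genotypes from Hdac4HET and WT, Txnrd1 nearly so, and Cat lies lowest in Dble::R6/2.

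Gclc and Gclm encode the catalytic and the modifier subunit of glutamate-cysteine ligase, which sets the rate of glutathione synthesis. On the brightest Gclc probe set (1424296_at) the lowest, median and highest levels were 9.10, 9.45 and 9.79 in Dble::R6/2 and 8.97, 9.15 and 9.34 in Hdac4HET. They were 8.73, 9.44 and 9.75 in R6/2 and 8.50, 9.06 and 9.17 in WT. In each comparison 7 of 9 transgenic mice stood above all mice without the transgene, and the others overlapped them. Gclc was called higher in Dble::R6/2 than in Hdac4HET (0.35 ± 0.088, adjusted p = 0.00606), while in R6/2 against WT the difference was 0.33 ± 0.14 and missed the threshold (adjusted p = 0.0798). The lowest R6/2 mouse was replicate 2, and without it the difference was 0.40 (adjusted p = 0.0176).

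The other Gclc probe set (1455959_s_at) rose in both comparisons. Its lowest, median and highest levels were 8.57, 9.11 and 9.26 in Dble::R6/2 and 8.28, 8.55 and 8.77 in Hdac4HET, against 8.86, 9.12 and 9.48 in R6/2 and 8.60, 8.81 and 8.94 in WT. Again 7 of 9 transgenic mice stood above all others in each comparison. The rise was 0.49 ± 0.10 in Dble::R6/2 against Hdac4HET (adjusted p = 0.00122) and 0.37 ± 0.088 in R6/2 against WT (adjusted p = 0.00372).

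Gclm was less clear. On its brightest probe set (1418627_at) the lowest, median and highest levels were 8.63, 9.21 and 9.51 in Dble::R6/2 and 8.66, 8.98 and 9.17 in Hdac4HET, and 8.66, 9.17 and 9.43 in R6/2 and 8.36, 8.90 and 9.18 in WT. The groups overlapped widely, and the differences of 0.26 ± 0.11 and 0.24 ± 0.13 were not called (adjusted p = 0.0889 and 0.204). On the other Gclm probe set (1439050_at) the levels ran 7.25, 8.13 and 8.34 in Dble::R6/2 and 7.10, 7.53 and 7.88 in Hdac4HET, and 7.74, 8.12 and 8.48 in R6/2 and 7.65, 7.94 and 8.21 in WT. Here 7 of 9 Dble::R6/2 mice stood above all Hdac4HET mice. That probe set was called in Dble::R6/2 against Hdac4HET (0.43 ± 0.14, adjusted p = 0.036) but not in R6/2 against WT (0.15 ± 0.10, adjusted p = 0.315). The call was lost in the methods' t-test with Benjamini-Hochberg adjustment (adjusted p = 0.0657).

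Txnrd1 is the cytosolic thioredoxin reductase, a selenoprotein that keeps thioredoxin reduced with NADPH. Its brightest probe set (1421529_a_at) had lowest, median and highest levels of 8.93, 9.05 and 9.26 in Dble::R6/2 and 8.55, 8.75 and 9.02 in Hdac4HET. In R6/2 they were 9.00, 9.14 and 9.29, and in WT 8.79, 8.85 and 9.02. The overlap was small: 6 of 9 Dble::R6/2 mice exceeded all Hdac4HET mice and 8 of 9 R6/2 mice exceeded all WT mice. Txnrd1 rose by 0.30 ± 0.067 in Dble::R6/2 against Hdac4HET (adjusted p = 0.00251) and by 0.28 ± 0.054 in R6/2 against WT (adjusted p = 0.000714). The other Txnrd1 probe sets were dim, with genotype means of 4.73 to 4.78 (1424486_a_at) and 3.24 to 3.42 (1424487_x_at), and neither was called in any comparison.

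Srxn1, sulfiredoxin, restores peroxiredoxins whose active cysteine has been over-oxidised. Its brightest probe set (1426875_s_at) had lowest, median and highest levels of 8.80, 9.00 and 9.11 in Dble::R6/2 and 8.33, 8.80 and 8.92 in Hdac4HET. In R6/2 they were 8.51, 9.01 and 9.21, and in WT 8.56, 8.78 and 8.96. In Dble::R6/2 7 of 9 mice stood above all Hdac4HET mice, and in R6/2 6 of 9 stood above all WT mice while replicate 2 stood below them all. The rise was 0.23 ± 0.073 (adjusted p = 0.0283) and 0.23 ± 0.083 (adjusted p = 0.0485), both near the threshold. In R6/2 against WT the call was lost with labelled sex as a covariate (adjusted p = 0.0541), in the methods' t-test (0.0595) and without the 3 WT arrays high in Prl (0.163), and without R6/2 replicate 2 it was 0.29 (adjusted p = 0.00211). The other 3 Srxn1 probe sets changed by 0.0016 to 0.075 and by -0.33 to 0.034 and were not called. The lowest of these, 1425351_at in R6/2 against WT (adjusted p = 0.14), had the opposite sign to the brightest.

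Sod1 is the copper and zinc superoxide dismutase of the cytosol, and 3 of its 5 probe sets rose in both comparisons. On the brightest (1451124_at) the lowest, median and highest levels were 11.77, 11.82 and 11.93 in Dble::R6/2 and 11.52, 11.62 and 11.73 in Hdac4HET, and 11.76, 11.81 and 11.96 in R6/2 and 11.41, 11.57 and 11.65 in WT. No transgenic mouse overlapped a mouse without the transgene. The rise was 0.22 ± 0.045 in Dble::R6/2 against Hdac4HET (adjusted p = 0.00106) and 0.28 ± 0.049 in R6/2 against WT (adjusted p = 0.000264).

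On the Sod1 probe set 1435304_at the separation was wider. Its lowest, median and highest levels were 7.70, 7.85 and 8.05 in Dble::R6/2 and 7.29, 7.39 and 7.53 in Hdac4HET, and 7.72, 7.95 and 8.13 in R6/2 and 7.11, 7.36 and 7.54 in WT. It rose by 0.47 ± 0.059 (adjusted p = 7.61e-06) and 0.59 ± 0.073 (adjusted p = 7.95e-06), again without overlap. The probe set 1459976_s_at rose by 0.23 ± 0.065 (adjusted p = 0.0132) and 0.38 ± 0.062 (adjusted p = 0.000138), with overlap only in Dble::R6/2 against Hdac4HET. The size of the Sod1 change thus depended on the probe set, between 0.22 and 0.47 on the Hdac4HET background and between 0.28 and 0.59 on the WT background. The last pair, 1440222_at and the dimmest of the 26, 1447761_x_at, changed by 0.21 and 0.078 in Dble::R6/2 against Hdac4HET and by -0.067 and 0.063 in R6/2 against WT and were not called.

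Sod2 is the manganese dismutase of the mitochondrial matrix. Its brightest probe set (1448610_a_at) had lowest, median and highest levels of 9.82, 9.91 and 10.02 in Dble::R6/2 and 9.82, 9.94 and 10.05 in Hdac4HET, and 9.80, 9.97 and 10.41 in R6/2 and 9.68, 9.86 and 9.95 in WT. The ranges overlapped, and the highest R6/2 value was that of replicate 2. It changed by -0.012 ± 0.050 (95% interval -0.12 to 0.09, adjusted p = 0.913) and by 0.13 ± 0.073 (-0.02 to 0.28, adjusted p = 0.218). Another Sod2 probe set, 1454976_at, had 8.40, 8.73 and 8.95 in Dble::R6/2 and 8.12, 8.46 and 8.75 in Hdac4HET, and 8.52, 8.73 and 9.27 in R6/2 and 8.21, 8.36 and 8.47 in WT. On this one all R6/2 mice stood above all WT mice. It rose by 0.42 ± 0.083 in R6/2 against WT (adjusted p = 0.000846), while the 0.23 ± 0.086 in Dble::R6/2 against Hdac4HET was just short of a call (adjusted p = 0.0546) and was called under 5 of 9 alternative settings. The Sod2 probe sets 1417193_at and 1417194_at changed by 0.016 and 0.059 and by -0.094 and -0.13 and were not called.

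Cat, peroxisomal catalase, splits hydrogen peroxide into water and oxygen, and it moved against the other called genes. On its brightest probe set (1416429_a_at) the lowest, median and highest levels were 7.93, 8.07 and 8.44 in Dble::R6/2 and 8.37, 8.50 and 8.73 in Hdac4HET. They were 8.03, 8.31 and 8.70 in R6/2 and 7.82, 8.65 and 8.78 in WT. In Dble::R6/2 8 of 9 mice fell below all Hdac4HET mice, whereas in WT the lowest mouse, replicate 6, lay below every R6/2 mouse. Catalase fell by 0.37 ± 0.074 in Dble::R6/2 against Hdac4HET (adjusted p = 0.000785), and its difference of -0.21 ± 0.12 in R6/2 against WT was not called (adjusted p = 0.247).

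The other Cat probe set (1416430_at) was called in both comparisons. Its lowest, median and highest levels were 7.02, 7.77 and 8.09 in Dble::R6/2 and 7.82, 8.17 and 8.36 in Hdac4HET, and 7.39, 8.11 and 8.30 in R6/2 and 8.25, 8.58 and 8.74 in WT. Below all mice of the genotype they were compared with stood 6 of 9 Dble::R6/2 and 8 of 9 R6/2 mice. It fell by 0.46 ± 0.12 (adjusted p = 0.00745) and by 0.49 ± 0.11 (adjusted p = 0.00171), and the calls held under all 9 and all 10 alternative settings run for it.

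Loss of 1 Hdac4 allele without the transgene went with lower levels of a few probe sets. In Hdac4HET against WT 2 of the 26 were called, both lower, where 2.23% of all probe sets were called lower and 1.67% higher. The second Cat probe set (1416430_at), with the levels given above, fell by 0.35 ± 0.087 (adjusted p = 0.0372), and 5 of 8 Hdac4HET mice stood below all WT mice. The second Gclm probe set (1439050_at) fell by 0.40 ± 0.11 (adjusted p = 0.043), likewise with 5 of 8 Hdac4HET mice below all WT mice. Just above the threshold stood the well-measured Nfe2l2 probe set, with -0.39 ± 0.11 (adjusted p = 0.0506), and the second Gclc probe set, with -0.27 ± 0.075 (adjusted p = 0.0521). The brightest probe sets of Gclc, Gclm and Cat changed by 0.17, 0.12 and -0.023 and were not called. Both calls were lost under 5 of 9 alternative settings, among them Xist-read sex as a covariate (Cat -0.33, adjusted p = 0.127; Gclm -0.33, adjusted p = 0.148) and the 4 arrays high in Prl left out (Cat -0.29, adjusted p = 0.234; Gclm -0.38, adjusted p = 0.228). Under these settings only 22 and 5 of all probe sets were called, and the parts of sex and of pituitary transcripts in these differences were not tested further.

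Among mice with the transgene, Dble::R6/2 against R6/2 shows the difference that comes with the knock-out allele. In this comparison 0 of the 26 probe sets were called, by limma and by the methods' t-test alike, where 0.00666% of all probe sets were called. At an unadjusted p under 0.05 there was 1, the second Cat probe set, at -0.32 ± 0.13 (unadjusted p = 0.0222, adjusted p = 0.848). Nqo1 differed by -0.047 ± 0.085 (95% interval -0.22 to 0.13) and the brightest Sod1 probe set by 0.012 ± 0.044 (-0.08 to 0.10). Nfe2l2 differed by -0.19 ± 0.12 (-0.44 to 0.06). The difference between the effect of the transgene on the Hdac4HET and the WT background was tested with all 4 genotypes, and 0 of 26 probe sets were called (limma, 0 at an unadjusted p under 0.05), where 0.00222% of all were. For Nqo1 this difference of effects was -0.058 ± 0.12, for the brightest Gclc 0.015 ± 0.17, for Nfe2l2 0.20 ± 0.17 and for the brightest Cat -0.17 ± 0.15. The arrays of both tests are those of the comparisons above, Dble::R6/2 and R6/2 in the first and all 4 genotypes in the second.

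Other genes of the pathway were read from lists by the brightest probe set of each gene, and the 4 called members of each list with the largest change in R6/2 against WT are named. Of 18 regulators and partners of Nrf2, 7 were higher and 1 lower in Dble::R6/2 than in Hdac4HET, and 7 higher and 0 lower in R6/2 than in WT. Over all genes 18.3% were called higher and 11.7% lower in Dble::R6/2 against Hdac4HET, and 20.2% and 11.8% in R6/2 against WT. Maff, a small Maf protein that pairs with Nrf2, averaged 6.16 in Dble::R6/2 and 5.23 in Hdac4HET (0.93 ± 0.15, adjusted p = 0.000116), and 6.10 in R6/2 and 5.24 in WT (0.86 ± 0.15, adjusted p = 0.000265). Btrc, a ubiquitin ligase subunit that recognises phosphorylated Nrf2, was also higher on both backgrounds (0.40 ± 0.070, adjusted p = 0.00024, and 0.46 ± 0.070, adjusted p = 6.73e-05). Bach1 and Bach2, repressors that compete for the same elements, were higher in R6/2 than in WT (0.31 ± 0.058 and 0.37 ± 0.13, adjusted p = 0.00045 and 0.0422) and not called in Dble::R6/2 against Hdac4HET (0.10 and 0.08). For these genes the difference between the effects on the Hdac4HET and WT backgrounds was not read out. Keap1, named here after its values were seen, was higher on both (0.20 ± 0.066, adjusted p = 0.0305, and 0.28 ± 0.058, adjusted p = 0.001).

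Of 24 other Nrf2 target genes, 8 were higher and 5 lower in Dble::R6/2 than in Hdac4HET, and 6 higher and 4 lower in R6/2 than in WT. Against the shares of all genes (18.3% higher and 11.7% lower, and 20.2% and 11.8%) the counts in R6/2 against WT are near the background. Ptgr1, a reductase of reactive aldehydes and prostaglandins, was higher by 0.57 ± 0.10 (adjusted p = 0.00039) and 0.69 ± 0.097 (adjusted p = 2.93e-05). Pgd, an NADPH-forming enzyme of the pentose phosphate pathway, was higher by 0.46 ± 0.097 and 0.64 ± 0.094. Ephx1, microsomal epoxide hydrolase, was lower by changes of -0.37 ± 0.084 and -0.47 ± 0.079, and Blvrb, biliverdin reductase B, by changes of -0.57 ± 0.068 and -0.46 ± 0.072. In Hdac4HET against WT, where 1.71% of genes were called lower, 2 of the 24 were lower, the ferritin heavy chain Fth1 (-0.35 ± 0.074, adjusted p = 0.0265) and the aldehyde oxidase Aox1 (-0.26 ± 0.054, adjusted p = 0.0277).

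In the glutathione system, 7 of 35 genes were higher and 6 lower in Dble::R6/2 than in Hdac4HET, and 11 higher and 4 lower in R6/2 than in WT. Of all genes 18.3% were higher and 11.7% lower in the Hdac4HET comparison, which the 7 higher are near, and 20.2% and 11.8% in the WT comparison, which the 4 lower are near. Gpx1, the abundant glutathione peroxidase, averaged 10.76 in Dble::R6/2 and 10.31 in Hdac4HET (0.45, adjusted p = 1.13e-06), and 10.69 in R6/2 and 10.23 in WT (0.46, adjusted p = 1.09e-05). Mgst1, a membrane glutathione transferase, was higher by 0.46 ± 0.14 and 0.55 ± 0.12, and glutathione reductase, Gsr, by 0.29 and 0.40 (adjusted p = 0.0036 and 0.000843). Gstm2, a cytosolic glutathione transferase, changed by 0.08 in Dble::R6/2 against Hdac4HET (adjusted p = 0.621) and was called higher in R6/2 than in WT (0.40, adjusted p = 0.0111). The limma test of the difference between these effects covered all probe sets and called 0.00222% of them. Its value for Gstm2 was not read out here.

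In the thioredoxin and peroxiredoxin system, 6 of 16 genes were higher and 0 lower in Dble::R6/2 than in Hdac4HET, and 7 higher and 1 lower in R6/2 than in WT, beside 18.3% and 11.7%, and 20.2% and 11.8%, of all genes. Called in both were the methionine sulfoxide reductase Msrb2 (0.48 and 0.48), Txnl1 (0.22 and 0.41), the thioredoxin-binding Txnip (0.48 and 0.40) and the peroxiredoxin of the secretory pathway, Prdx4 (0.49 and 0.39). Of 15 other antioxidant and metal-binding proteins 3 were higher and 2 lower in Dble::R6/2 against Hdac4HET, and 3 higher and 3 lower in R6/2 against WT, which is near the shares of all genes. Among these the copper oxidase Cp was higher (0.37 ± 0.12 and 0.66 ± 0.10), as was the constitutive haem oxygenase Hmox2 (0.36 and 0.45), cytoglobin, Cygb, was lower (-0.51 and -0.61), and Oxr1 was lower in R6/2 than in WT (-0.38, adjusted p = 0.0125). Selenop, a selenium carrier, was the 1 gene of this list called in Hdac4HET against WT (-0.23, adjusted p = 0.0384). Of 15 genes that produce superoxide or peroxide 3 were higher and 1 lower in Dble::R6/2 than in Hdac4HET, near the share of all genes for those higher, and 0 were called in R6/2 against WT.

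The median change of these lists in R6/2 against WT was 0.15 for the regulators, 0.16 for the thioredoxin system, 0.10 for the glutathione system, 0.032 for other targets, 0.050 for the other antioxidant proteins and -0.013 for the oxidant sources, beside 0.024 over all genes. In Dble::R6/2 against Hdac4HET it was 0.17, 0.13, 0.046, 0.061, 0.038 and -0.054, beside 0.021.

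**Figure D3:**
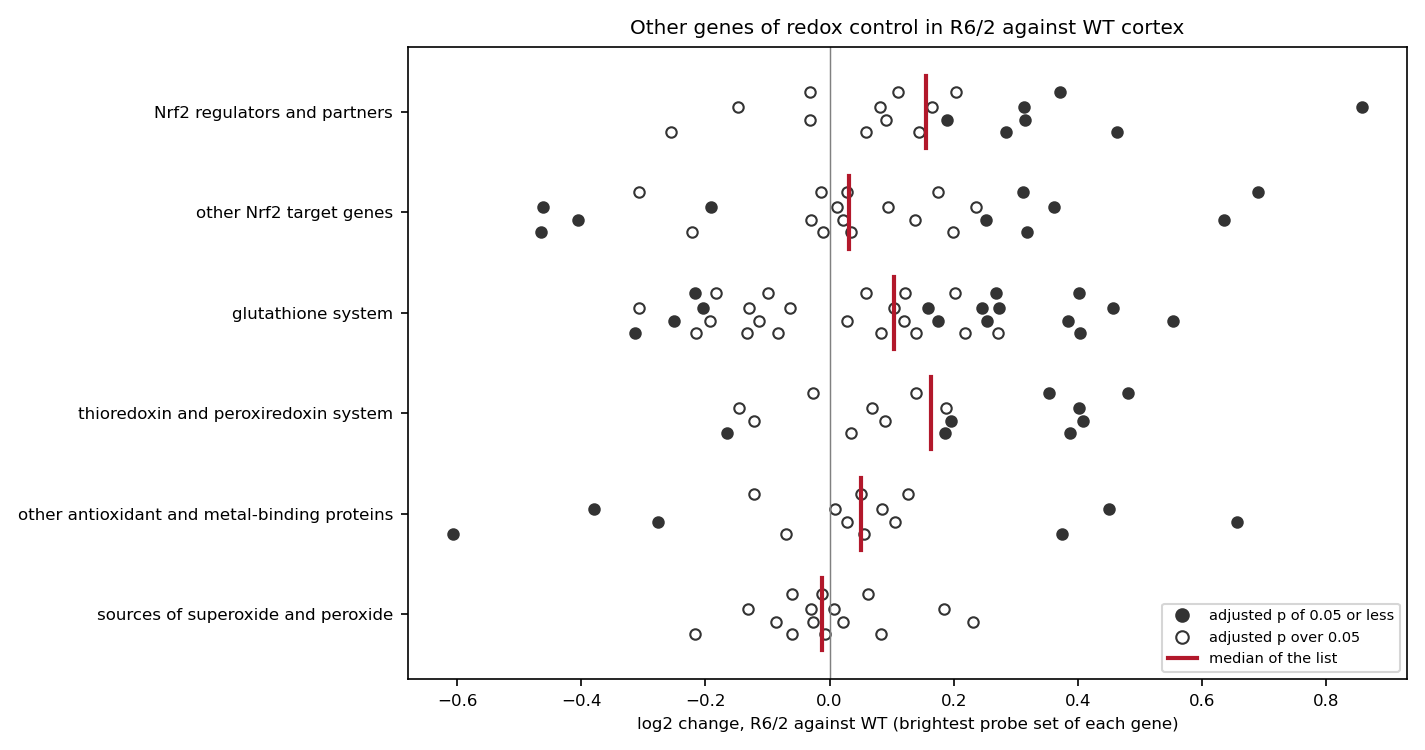
Log2 change in R6/2 against WT (x axis) of the genes on 6 lists of redox control, 1 point per gene by its brightest probe set, filled at an adjusted p of 0.05 or less, with the list's median as a bar. Called genes lie on both sides of 0 for the other Nrf2 targets and the glutathione system, mostly to the right for the regulators and the thioredoxin system, and none of the oxidant sources was called.

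Deviations from the genotype mean, over all 34 arrays, showed how the genes varied among mice of 1 genotype. The correlations that follow are descriptions, since all probe sets of an array share its RNA, labelling and normalisation. The brightest Gclc and Gclm probe sets varied closely together (r = 0.891), as did the second probe sets of these genes (r = 0.849). Yet the brightest and the second probe set of the same gene did not, with r = 0.124 for Gclc and -0.079 for Gclm. Nfe2l2 varied with the second Cat probe set (r = 0.788), and the brightest Gclm with the Sod1 probe set 1440222_at (r = 0.836). Nqo1 ran against the brightest Gclm (r = -0.549).

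These sets matched the leading patterns of variation on the arrays as a whole. The first component of the deviations of all probe sets held 22.5% of their squared sum, and r with it was 0.86 for the brightest Gclc, 0.894 for the brightest Gclm and 0.854 for 1440222_at of Sod1. The second component held 18.2%, and r with it was 0.821 for Nfe2l2, 0.785 and 0.787 for the second probe sets of Gclc and Gclm, and 0.789 for the second of Cat. Those 4 are the probe sets with an adjusted p of 0.0521 or less in Hdac4HET against WT. Next came 1459976_s_at of Sod1, which was higher in Hdac4HET (0.18 ± 0.058, adjusted p = 0.0838) and had r of -0.61 with this component. Others with r nearly as high as those 4 were far from a call there. In Srxn1, 1451680_at, 1425351_at and the brightest probe set had r of 0.718, 0.713 and 0.702 (adjusted p = 0.53, 0.26 and 0.986). The Sod2 probe set 1417193_at had r of 0.697 (adjusted p = 0.321). The called probe sets of Nqo1 and Txnrd1 had r of 0.065 and -0.046 with the second component and -0.55 and -0.054 with the first. Among other called probe sets r with the second component was 0.70 for the brightest Srxn1 and -0.61 for 1459976_s_at of Sod1.

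**Figure D4:**
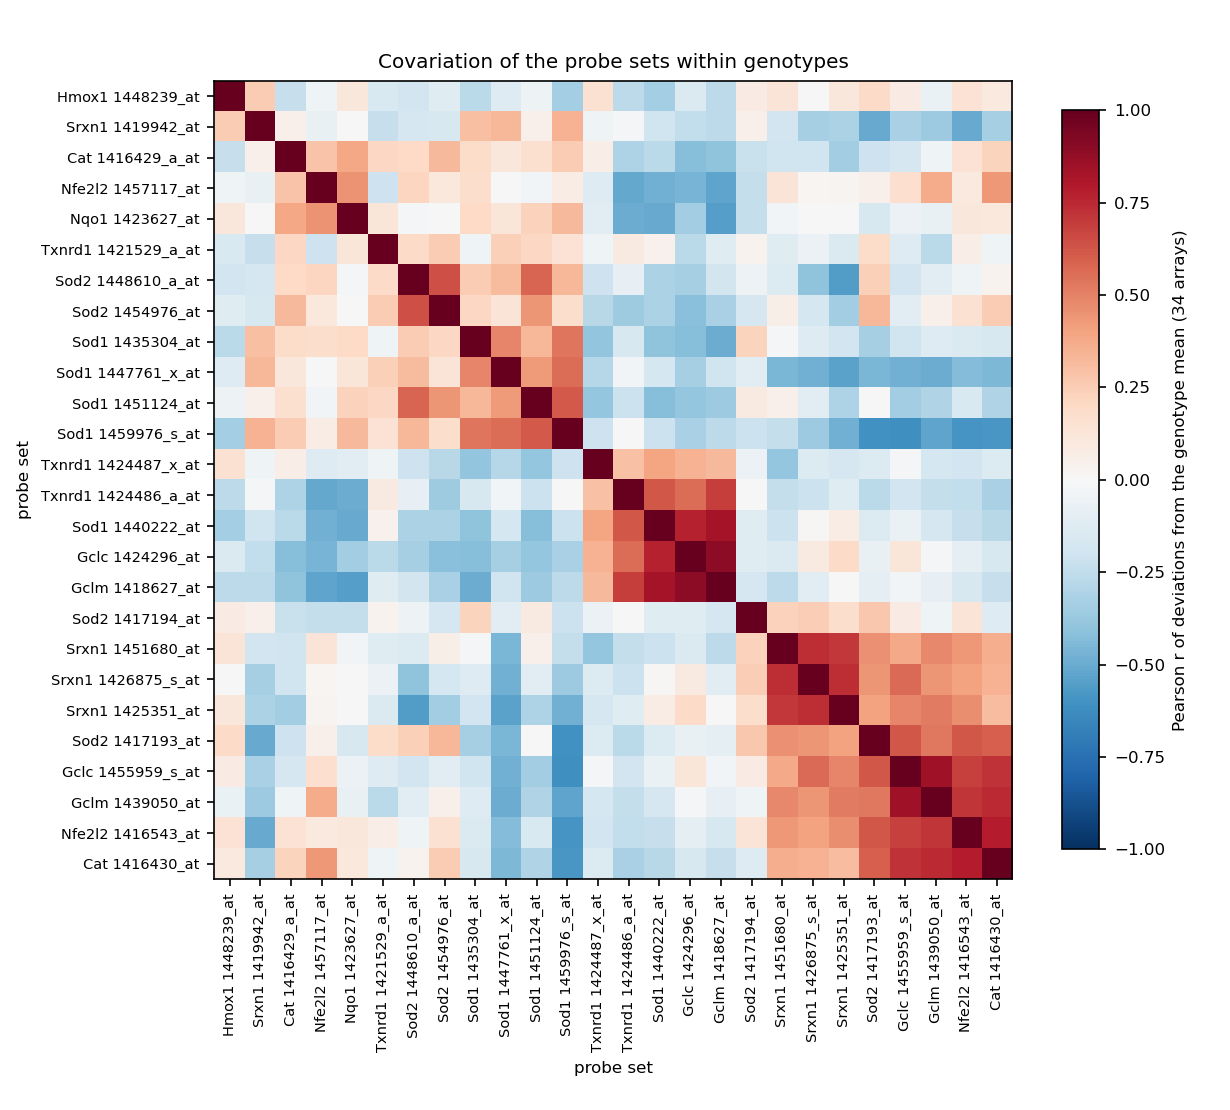
Pearson r between the deviations of each pair of the 26 probe sets from their genotype means over 34 arrays, with probe sets on both axes in the order of a clustering and r from -1 to 1 in colour. A block at the lower right holds Nfe2l2, the second probe sets of Gclc, Gclm and Cat and 3 of Srxn1, and a separate block holds the brightest Gclc and Gclm (r = 0.891) and 1440222_at of Sod1.

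Among 18192 other genes, those whose deviations were most like those of Nfe2l2 over the 34 arrays were Snap23 (r = 0.877), Rgs19 (0.873), Dzip1 (0.872), Ncoa4 (0.857) and Add3 (0.856). The median r over all genes was -0.035, and its 99th percentile was 0.777. Like Nfe2l2, all 5 had a lower mean in Hdac4HET than in WT, by changes of -0.51, -0.36, -0.23, -0.33 and -0.31. Only that of Add3 was called (adjusted p = 0.0499), where 1.71% of genes were called lower. With the transgene they did not all follow Nfe2l2, which was not called. Snap23 and Add3 were called lower in R6/2 against WT (-0.53 and -0.38, adjusted p = 0.0047 and 0.0065). Rgs19 was called higher in Dble::R6/2 against Hdac4HET (0.48, adjusted p = 0.00578).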

How the data were processed

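Per the labels and the study's methods, total RNA of each cortex was labelled with a 3′ IVT kit and hybridised by the authors to 1 array per mouse, and some arrays were left out by them for poor quality. What the authors deposited is a log2 level for each probe set. How background was corrected and how arrays were normalised is not given in the sources used here. Precision is limited by the 8 or 9 mice of a genotype. Each limma p-value sets a difference of means against the spread between mice, moderated over all probe sets.

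The platform annotation gave 1 symbol to 34945 of the 45037 probe sets. It gave more than 1 to 932, which were not named, and none to 9160. The 26 probe sets of the 10 genes were all kept, without a filter on dim values; 19 of them passed the filter used as an alternative. A gene's brightest probe set is that of highest mean level in the 34 arrays. R 4.3.3 and its package limma 3.58.1 were used to fit each pair of genotypes (lmFit, then eBayes) on the arrays of that pair, and the interaction on all 4 genotypes, with Benjamini-Hochberg adjustment over all probe sets. The study's methods compared pairs of genotypes gene by gene, and the methods' t-test was kept as 1 of 11 alternatives. The others were quantile normalisation, the filter, labelled or Xist-read sex as covariate, the replicate number as a block, eBayes with trend and robust options, 1 fit of all genotypes, arrays high in Prl (above 8) or R6/2 replicate 2 left out, and 1 probe set a gene. The fit was tested on simulated data. Promoters, correlations and figures were made with Python 3.11.15, pandas 2.3.3, scipy 1.17.1 and matplotlib 3.10.9.

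The genes, the pathway and marker lists and the alternatives were chosen with earlier results of these data known. Named were all 10 genes, Hdac4, the 4 called members of each list with the largest change in R6/2 against WT, and the 5 genes most like Nfe2l2. Keap1 and the calls in Hdac4HET against WT were added after their values were seen. Listed genes without a probe set of 1 symbol (such as Prdx1, Prdx6 and G6pdx) were not analysed here.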

Additional observations from a re-analysis of the deposited data

Results flagged for a closer look

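In 104 sets of values, 1 for each of the 26 probe sets in each genotype, 3 held a mouse far from the others of its genotype by Dixon's test, where chance gives about 5%. The brightest Srxn1 probe set read 8.51 in R6/2 replicate 2, the lowest of 9, with the next mouse at 8.90. The brightest Sod2 probe set read 10.41 in the same mouse, the highest of 9, with the next at 10.06, and this array also carried epidermal transcripts. The brightest Cat probe set read 7.82 in WT replicate 6, the lowest of 8, with the next at 8.35, and this is 1 of the 4 arrays high in Prl. Without R6/2 replicate 2 the change of Srxn1 in R6/2 against WT was 0.29 (adjusted p = 0.00211) and that of Sod2 was 0.076 (adjusted p = 0.338). Without the Prl-high arrays that of Cat was -0.27 (adjusted p = 0.106).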

How the results depend on the processing

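The counts of called probe sets among the 26 stayed between 8 and 11 in R6/2 against WT (9 as reported), between 10 and 12 in Dble::R6/2 against Hdac4HET (11), and at 0 in Dble::R6/2 against R6/2 and in the interaction under every alternative run. With 1 probe set a gene they were 4, 6 and, in Hdac4HET against WT, 1. In Hdac4HET against WT, where 2 were called, the count was 4 with quantile normalisation, with brighter probe sets only, with labelled sex and with trend and robust options, 1 with the replicate block, and 0 with Xist-read sex, with all genotypes in 1 fit, in the methods' t-test and without the Prl-high arrays; the cause was not tested. Over all probe sets the count there was 1760 as reported, 3305 with labelled sex, 877 with the block, 704 in 1 fit of all genotypes, 173 in the t-test, 22 with Xist-read sex and 5 without the Prl-high arrays, and in R6/2 against WT it was 12127 as reported and 8040 without those arrays. In Dble::R6/2 against R6/2 it was 3 as reported and ran from 0 to 7, and in the interaction it was 1 and ran from 0 to 3.

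Of the changes of the brightest probe sets, 470 values under an alternative kept their direction and side of the threshold, 11 gained a call, 5 lost one and 9 changed sign. None of the 9 was called in any setting. They were Cat in Hdac4HET against WT (0.00314) and Srxn1 in Dble::R6/2 against R6/2 (0.00783) with Xist-read sex, and, as differences of effects in the interaction, Hmox1 (-0.0066), Gclc (-0.0162), Gclm (-0.0397), Txnrd1 (-0.0243) and Srxn1 (0.0253) without the Prl-high arrays, and Gclc (-0.0578) and Gclm (-0.0338) without R6/2 replicate 2.

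Whether the replicate numbers of the labels pair the mice was not settled by the arrays. Deviations of same-numbered mice correlated between -0.124 and 0.276 in R6/2 against WT and -0.35 and 0.343 in Dble::R6/2 against Hdac4HET. They correlated between -0.141 and 0.254 in Hdac4HET against WT and -0.135 and 0.45 in Dble::R6/2 against R6/2. In these comparisons 0 of 8, 1 of 8, 2 of 8 and 3 of 9 pairs had their highest correlation with their own number. The correlation was above 0.1 in 4, 3, 3 and 6 of the pairs. With the replicate block 11, 10, 1 and 0 of the 26 were called in these comparisons and 0 in the interaction. The block added calls for the brightest Gclc and Gclm in R6/2 against WT (adjusted p = 0.0303 and 0.0356) and for Nfe2l2 in Hdac4HET against WT (0.0412), and for the Srxn1 probe set 1425351_at, lower in R6/2 than in WT (-0.40, 0.0349), and the brightest Srxn1 missed the threshold in both transgene comparisons (0.0886 and 0.0866). Nfe2l2 was called in Hdac4HET against WT under 6 of 10 alternatives (adjusted p = 0.0484 with 1 probe set a gene). Dim probe sets such as that of Hmox1 limit what can be read from them.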
